A study of Mus musculus with 2 samples.

Results

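The genes described here make up the sphingosine 1-phosphate (S1P) and lysophosphatidic acid (LPA) axis, the enzymes, exporter and receptors of these lysophospholipid signals, in fibroblastic reticular cells (FRCs), the lymph node's network-forming fibroblasts, after growth in culture. They were chosen by name, with earlier results of these data known, so counts over them are descriptive. Of the 10 listed genes, 9 had a probe set of their own among the 19751 genes named on the array. These are the LPA receptors Lpar1 and Lpar4, the S1P receptors S1pr1, S1pr2 and S1pr3, the sphingosine kinases Sphk1 and Sphk2, the S1P exporter Spns2 and the S1P lyase Sgpl1. The tenth, Enpp2, which encodes the LPA-producing enzyme autotaxin, has no single-gene probe set in the annotation used and was not analysed here. The series holds 1 group with 2 arrays, replicate 1 and replicate 2. Both carry RNA from C57BL6/J mice that were untreated and 4 to 6 weeks old. Their whole lymph node stroma was cultured in αMEM containing 10% fetal calf serum, and growth lasted 7 to 10 days. The source label calls the FRCs purified without naming the step. Nothing in the labels ties the replicates to different mice or dishes, which means that their spread could be technical in part.

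S1P and LPA are signalling lipids that act outside the cell on G protein-coupled receptors. Sphingosine kinases phosphorylate sphingosine to S1P, the transporter SPNS2 releases it from cells, and S1P lyase destroys it irreversibly inside them. The low S1P of lymphoid tissue against the high S1P of blood and lymph guides lymphocytes, through S1PR1, out of the lymph node. LPA is cut from lysophosphatidylcholine by autotaxin, and in mouse lymph nodes FRCs are known as a source of LPA that acts on the motility of T cells. Serum carries both lipids, and its part in the levels below was not tested.

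All 9 measured genes lay above a first background limit on both arrays, and 8 of them above a stricter limit as well, the exception being Spns2. Levels are log2 values of the intensities that the authors deposited, with mean ± SD over n = 2 arrays. The first limit is the 95th percentile of 1035 probe sets for olfactory receptors, genes that a fibroblast has no known need to transcribe, and lay at 7.15 on replicate 1 and 7.17 on replicate 2. Of all named genes, 67.3% passed it on both arrays. The stricter limit is set in the same way from 33 probe sets of genes limited to other tissues, such as liver, retina, testis or pituitary, at 8.24 and 8.30, and 48.1% of all named genes passed it. The stricter limit matters because 15 of those 33 genes (45.5%) passed the olfactory receptor limit themselves. Probes differ in how strongly they bind, so each gene is set against these limits and against itself on the other array. No order of levels between single genes is given, and medians over sets of genes are descriptive. Each of the 9 genes rests on a single probe set, and with 1 group no test between conditions was possible.

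**Figure D1:**
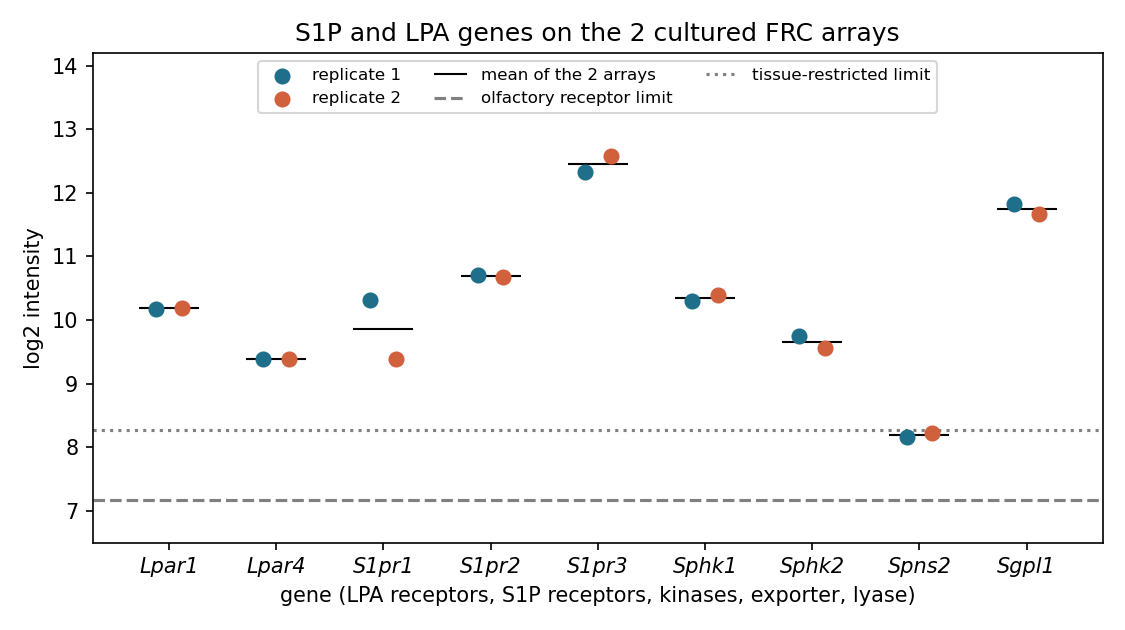
Log2 intensity of the 9 measured S1P and LPA genes on each array (points), their mean (bar), and the mean of each background limit over the arrays (lines). Spns2 is the member that lies between the limits, and S1pr1 is the one whose 2 points lie apart.

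The promoters of these genes were of mixed type. Of the 8 members with a promoter window in the RefSeq-derived table (mouse build GRCm38.p6), 5 had a CpG-rich one, meaning that in the 250 bases before a start site the ratio of observed to expected CpG was at least 0.6 and the GC content at least 50%. They were Lpar1, S1pr2, Sphk1, Sphk2 and Sgpl1, and the other 3 were Lpar4, S1pr3 and Spns2. A gene was classed as CpG-rich if any of its windows was, and genes with more windows had more occasions to qualify. Lpar1 had 3 windows, Sphk1 5 and Sphk2 2, and each other member had 1. Lpar1 also had windows with ratios of 0.28 and 0.48, and Sphk1 a window with 0.21, that were not CpG-rich. Over the 15434 named genes with a window, 48.7% had a CpG-rich one, and 90.4% of those passed the first limit, against 47.6% of the genes without one. The windows of 3 members are shown because they span this range, with every CpG in capitals. Sgpl1 (chr10:61147685-61147934, minus strand) held 31 CpG, S1pr3 (chr13:51408368-51408617, plus strand) held 9, and the Spns2 window (chr11:72475028-72475277, minus strand) held 2.
Sgpl1: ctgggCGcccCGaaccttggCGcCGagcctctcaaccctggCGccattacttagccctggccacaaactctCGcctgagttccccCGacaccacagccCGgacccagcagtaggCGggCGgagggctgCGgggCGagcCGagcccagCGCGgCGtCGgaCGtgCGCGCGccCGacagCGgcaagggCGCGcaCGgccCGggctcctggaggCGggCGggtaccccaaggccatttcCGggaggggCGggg
S1pr3: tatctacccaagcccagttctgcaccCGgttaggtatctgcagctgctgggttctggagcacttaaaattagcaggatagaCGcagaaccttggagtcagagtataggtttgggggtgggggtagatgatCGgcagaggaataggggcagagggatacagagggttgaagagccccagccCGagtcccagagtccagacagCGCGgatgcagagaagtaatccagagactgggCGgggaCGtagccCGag
Spns2: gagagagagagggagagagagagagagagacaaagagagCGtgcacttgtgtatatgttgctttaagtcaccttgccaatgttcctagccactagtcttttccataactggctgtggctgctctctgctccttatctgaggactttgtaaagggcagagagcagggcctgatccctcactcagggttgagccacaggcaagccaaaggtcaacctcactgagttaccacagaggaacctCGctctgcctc
The arrays do not show which start site was used. The ratio of observed to expected CpG was 0.89 in the Sgpl1 window, 0.48 in that of S1pr3 and 0.12 in that of Spns2. All 8 members with a window passed the first limit, so promoter class could not separate them there. The stricter limit was passed by 75.0% of all genes with a CpG-rich window and by 26.3% of those without one. Each of the 5 members with a CpG-rich window passed it. Of the other 3, Lpar4 and S1pr3 passed it and Spns2 did not. A link between promoter class and level was not tested in the members.

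Both LPA receptors on the list gave nearly identical signal on the 2 arrays. Lpar1, which couples to several G protein families and drives contraction and migration of fibroblasts, had intensities of 1160 on replicate 1 and 1172 on replicate 2. Its log2 level was 10.19 ± 0.01, which is 3.02 above the olfactory receptor limit. No olfactory receptor probe set reached it on either array. Lpar4, a receptor of the purinergic-like branch of LPA receptors and unlike the Edg-type Lpar1 in sequence, had 670.7 and 671.0, a log2 level of 9.39 ± 0.00. It lay 2.24 above the limit on replicate 1 and 2.22 on replicate 2, and 1 olfactory receptor probe set of 1035 was as high on each array.

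Among the other LPA receptors, the signal beyond the stricter limit was found in Lpar6. Lpar6, a relative of Lpar4, had levels of 10.88 and 10.62, and passed both limits. Lpar2 had 7.79 and 7.44 and Lpar3 7.28 and 7.28, which is above the first limit and below the stricter one on both arrays. Signal of that size is also seen in tissue-restricted genes, so RNA of Lpar2 and Lpar3 could not be told apart from background here. Lpar5 has no probe set of its own and was not analysed here.

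All 3 listed S1P receptors passed both limits. S1pr3, known from fibroblasts and smooth muscle for coupling to several families of G proteins, had intensities of 5139 on replicate 1 and 6151 on replicate 2. Its log2 level was 12.46 ± 0.18 and lay 5.29 above the first limit on average. S1pr2, the receptor that restrains cell migration, had 1677 and 1629, a log2 level of 10.69 ± 0.03. For neither receptor did an olfactory receptor or tissue-restricted probe set reach the signal.

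S1pr1 was the member whose arrays differed most. This receptor couples to Gi and is best known from lymphocytes and endothelium. It had an intensity of 671.2 on replicate 2 and 1279 on replicate 1, a log2 level of 9.86 ± 0.66. It passed the stricter limit by 1.09 on replicate 2 and by 2.08 on replicate 1, and so passed both limits on each array. As high or higher were 1 olfactory receptor probe set on replicate 2 and 0 on replicate 1. The 2 S1P receptors outside the list, S1pr4, known from blood cells, and S1pr5, known from natural killer cells and oligodendrocytes, had log2 levels of 8.19 ± 0.01 and 7.82 ± 0.09. Both lay above the first limit and below the stricter one on both arrays.

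The enzymes that make and destroy S1P all gave signal well above background. Sphk1, the mostly cytoplasmic kinase that moves to the plasma membrane on stimulation, had intensities of 1258 on replicate 1 and 1344 on replicate 2, a log2 level of 10.34 ± 0.07. Sphk2, the kinase found largely in nucleus and internal membranes, had 860.1 and 752.3, a level of 9.65 ± 0.14. Neither was reached by an olfactory receptor probe set, and both passed the stricter limit, Sphk1 by 2.05 on replicate 1 and 2.09 on replicate 2, and Sphk2 by at least 1.26. Sgpl1, the endoplasmic reticulum lyase whose CpG-dense promoter is printed above, had intensities of 3623 and 3266 and a log2 level of 11.75 ± 0.11, which is 4.59 above the first limit.

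Spns2, the exporter through which endothelial cells supply S1P to lymph, was the exception. Its intensities were 287.4 on replicate 1 and 297.5 on replicate 2, a log2 level of 8.19 ± 0.04. It lay 1.02 and 1.04 above the first limit, and below the stricter one by 0.076 and 0.081. On each array 6 olfactory receptor probe sets and 2 of the 33 tissue-restricted ones were as high or higher. By the stricter limit, RNA of Spns2 could not be told apart from the background of tissue-restricted probe sets, which does not show that it was absent. The margin is narrow. The limit falls between Aqp2 (8.39 on replicate 1, 8.43 on replicate 2) and Apoa2 (8.15 and 8.21). Spns2 also lay between these genes on both arrays, and other percentiles of this set were not tried.

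**Figure D2:**
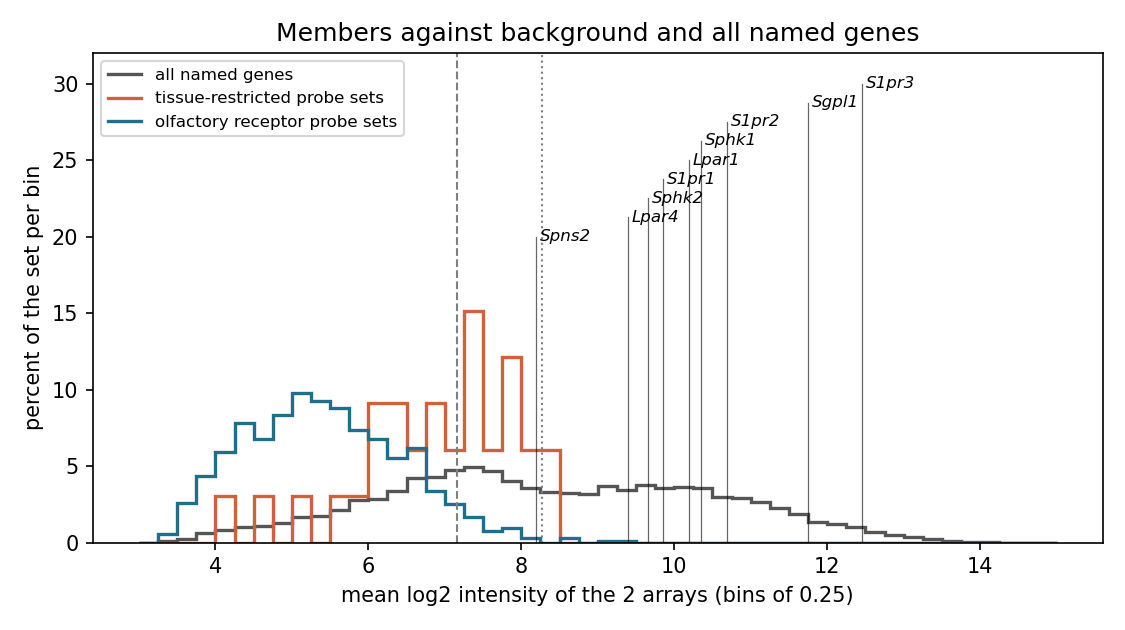
Share of olfactory receptor probe sets, tissue-restricted probe sets and all named genes in each bin of mean log2 intensity, with the 9 members as labelled vertical lines (their heights carry no value) and the limits as dashed (olfactory receptor) and dotted (tissue-restricted) lines. Spns2 falls within the range of the tissue-restricted probe sets, and the other 8 members lie to the right of it.

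Markers of cells that carry S1P and LPA genes in the lymph node were read beside these levels. Of 10 FRC markers, 8 passed the first limit and 6 the stricter one (Pdpn, Pdgfra, Pdgfrb, Thy1, Vcam1 and Ltbr), while Cxcl13 and Bst1 passed neither. Ccl19, averaged over 4 probe sets, lay between the limits on both arrays (8.01 ± 0.23). Il7 passed the stricter limit on replicate 1 only. Of 8 blood endothelial markers, 4 passed the first limit and 1, Egfl7, the stricter. Lymphatic endothelial markers cleared the first limit in 1 of 6 cases and the stricter in 0, with Prox1 at 6.42 ± 0.03 and Lyve1 at 6.95 ± 0.26. Of 8 leukocyte markers, 3 passed the first limit and 0 the stricter, with Ptprc, the pan-leukocyte gene, at 6.44 ± 0.04. Mural cell markers passed in 4 of 6 cases, and 3 (Mcam, Cspg4 and Notch3) also passed the stricter limit. The part of any of these cell types in the signal of S1pr1, Spns2 or S1pr4 was not tested.

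The rest of the pathway was largely above the first limit. Of 78 other measured pathway genes in 8 lists, 66 passed the first limit and 56 the stricter, which is 84.6% and 71.8%, against the 67.3% and 48.1% of all named genes. Their median log2 level was 10.08 on replicate 1 and 10.24 on replicate 2, against 8.23 and 8.23 for all named genes and 10.30 and 10.19 for the 9 members. The lists were written by hand, and nothing particular to the pathway is drawn from these shares.

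Genes that supply sphingosine passed in 16 of 20 measured cases, 13 of them above the stricter limit. Those not above the first limit on both arrays were Sptlc3 (5.92 ± 0.10), a tissue-limited subunit of serine palmitoyltransferase, the ceramide synthase Cers3 (6.56 ± 0.07), the ceramidase Acer1 (6.93 ± 0.05) and the desaturase Degs2 (7.18 ± 0.01, above it on 1 array). Each has a relative that passed both limits. The main subunits Sptlc1 and Sptlc2 had 10.44 ± 0.01 and 11.99 ± 0.07. Cers2, the synthase of very long chain ceramides, had 12.80 ± 0.05, the desaturase Degs1 12.72 ± 0.07, and acid ceramidase, Asah1, which frees sphingosine in lysosomes, 12.76 ± 0.01. Cers1 has no probe set of its own and was not analysed here.

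Genes that remove S1P or divert ceramide cleared the first limit in 10 of 10 cases, and 9 also cleared the stricter limit. The S1P phosphatase Sgpp1 had levels of 10.79 and 10.92, and its relative Sgpp2, below the stricter limit, 7.30 and 7.37. The surface lipid phosphatases, which remove phosphate from S1P and LPA outside the cell, had 12.04 ± 0.10 for Plpp1, 11.74 ± 0.03 for Plpp2 and 12.61 ± 0.23 for Plpp3. Aldh3a2, which oxidises the aldehyde left by the lyase, had 10.91 ± 0.15. Sgpp2 is the one of the 10 genes below the stricter limit.

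Of 5 carriers and transporters, 4 passed the first limit and 3 the stricter. Apom, the S1P carrier of high-density lipoprotein, was below both limits (6.05 ± 0.02), and Mfsd2b, the S1P exporter of red cells and platelets, lay between them (7.27 ± 0.04). The ABC transporters Abca1, Abcc1 and Abcg2, which have been linked to S1P release in other cells, passed both limits. Thus neither Spns2 nor Mfsd2b, the 2 dedicated S1P exporters, passed the stricter limit.

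For LPA, 11 of 13 genes of synthesis and breakdown passed both limits. The exceptions were the phosphatidic acid lipases Liph (6.23 ± 0.03) and Lipi (5.14 ± 0.03). Pla1a, a phosphatidylserine-selective phospholipase, had 10.08 ± 0.14, the cytosolic phospholipase Pla2g4a 12.15 ± 0.09, and the LPA phosphatase Acp6 9.12 ± 0.25. In the ENPP family of autotaxin, 2 of 5 measured relatives passed the first limit, Enpp4 (8.31 ± 0.09) and Enpp5 (9.66 ± 0.56), and Enpp5 passed the stricter one. Enpp3 (7.48 ± 0.62, above the limit on 1 array), Enpp6 (5.87 ± 0.01) and Enpp7 (7.01 ± 0.08) did not pass. These relatives say nothing of Enpp2 itself, and Enpp1 was not analysed here.

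Downstream of the receptors, 13 of 13 measured genes of G proteins and cytoskeletal effectors passed both limits. Gnai2, an alpha subunit of the Gi family, had 12.98 ± 0.00, Gna12 and Gna13, whose products act on the actin cytoskeleton, had 12.16 ± 0.00 and 11.82 ± 0.04, and Gnaq had 11.87 ± 0.05. Rhoa, averaged over 2 probe sets, had 13.63 ± 0.03 and its kinase Rock1 10.93 ± 0.05. Rock2 and Grk2 were not analysed here. Of 7 genes that desensitise receptors, 5 passed both limits, among them the kinases Grk5 (10.78 ± 0.23) and Grk6 (10.59 ± 0.08) and the arrestin Arrb1 (9.46 ± 0.56). Cd69, which draws S1PR1 off the surface of activated lymphocytes, was below both limits (5.65 ± 0.12), as was Grk3 (6.76 ± 0.05).

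**Figure D3:**
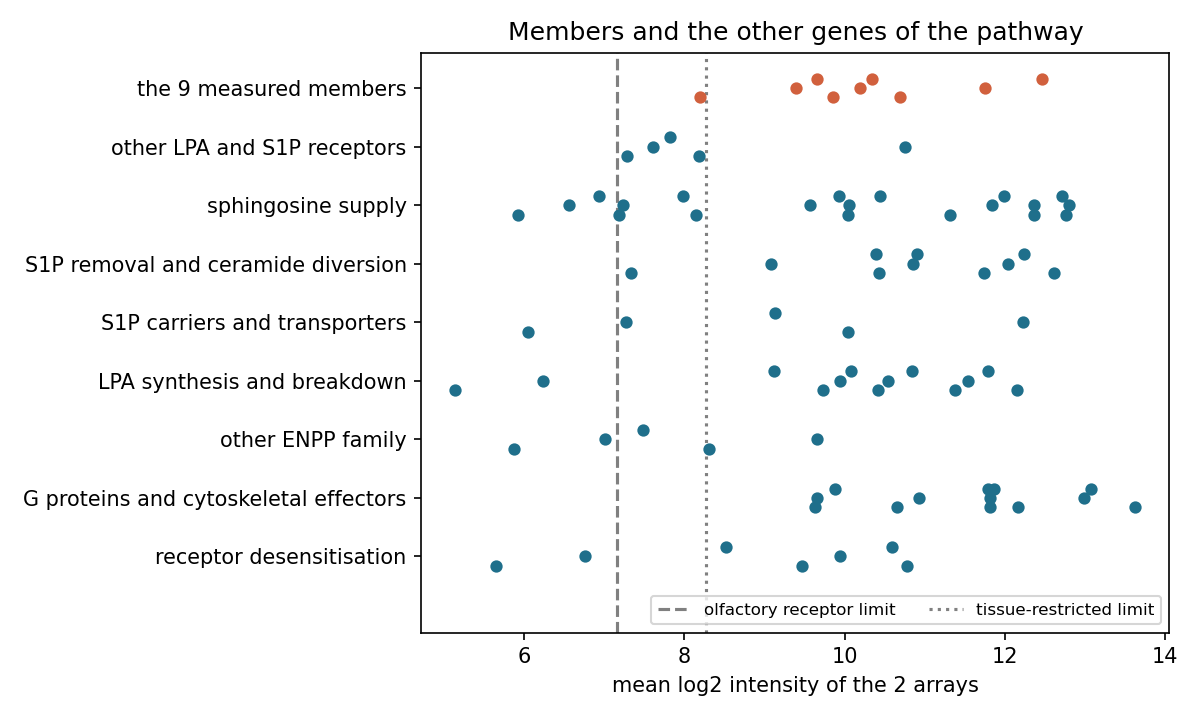
Mean log2 intensity of the 9 measured members (top row) and of each measured gene in the 8 other pathway lists, with the mean of each background limit over the arrays as vertical lines. Points are spread vertically for legibility. In the row of other receptors 4 of 5 genes lie between the limits, while all G protein and cytoskeletal effector genes lie to the right of both.

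The 2 arrays were then compared gene by gene, as replicate 2 minus replicate 1. None of the 9 members differed by 2-fold or more, 0 of 9, where 1.41% of the 13577 named genes above the mean limit did. At 1.5-fold it was 1 of 9, S1pr1, where 4.77% of those genes did, so a single member sets this share. The median absolute log2 difference was 0.096 over the members and 0.11 over the 13577 genes. These counts describe the spread between 2 arrays of 1 group, and no p-value can be given for them.

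S1pr1 was 1.91-fold lower on replicate 2, a log2 difference of -0.93. Of the 13577 genes, 224 (1.65%) differed by as much or more in either direction. Among the 2851 genes within 0.5 of its mean log2 level, 59 (2.07%) did, and the median absolute difference of these neighbours was 0.13. In a culture measured in bulk, fewer cells that carry the transcript and less of it per cell cannot be told apart. S1pr1 had no promoter window in the table, and with 1 array a side the difference has no replicate check.

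The other 8 members differed by at most 1.20-fold. S1pr3 was 1.20-fold higher on replicate 2 (log2 difference 0.26), and 18.9% of the 13577 genes differed by as much. Sphk2 was 1.14-fold lower and Sgpl1 1.11-fold lower there (log2 differences -0.19 and -0.15), while Sphk1 was 1.07-fold higher (0.096). Spns2, S1pr2, Lpar1 and Lpar4 had log2 differences of 0.050, -0.042, 0.015 and 0.00068. These 4 differences are smaller than the 0.11 median of all genes above the limit, and the sign of 2 of them turned with the processing. Under quantile normalisation Lpar1 had -0.0018 and Lpar4 -0.030, and with the lowess trend removed Lpar4 had -0.0049.

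Other genes differed between the arrays beside S1pr1. Cell cycle markers were lower on replicate 2 in 5 of 5 cases, with median log2 levels of 9.82 on replicate 2 and 10.52 on replicate 1, and Mki67, a marker of dividing cells, differed by -1.07. Of 8 blood endothelial markers, 6 lay above the mean of the first limit, and of these 2 were higher and 4 lower on replicate 2, with a median difference of -0.066. Cdh5 had log2 levels of 7.53 on replicate 2 and 8.05 on replicate 1, below the stricter limit on both arrays. Emcn had 8.40 and Tek 7.68 on replicate 2, against 7.64 and 6.93 on replicate 1, which is below the stricter limit for Emcn and below both limits for Tek. The median level of the 8 was 7.40 on replicate 2 and 7.27 on replicate 1. Lymphatic endothelial markers had a median level of 7.07 on replicate 2 and 6.87 on replicate 1, and leukocyte markers 6.97 on replicate 2 and 7.03 on replicate 1, all below the first limit. Of the 2 lymphatic markers above its mean, Stab2 had 7.23 on replicate 2 and 7.12 on replicate 1, and Flt4 had 7.79 and 8.41. Of 4 mural markers above it, 3 were higher and 1 lower on replicate 2, with a median difference of 0.51. Rgs5 had 9.91 on replicate 2 and 7.37 on replicate 1, where it was below the stricter limit. The FRC cytokine gene Il7 had 7.74 on replicate 2, below the stricter limit, and 8.66 on replicate 1, and the median of the FRC markers was 11.08 on replicate 2 and 10.96 on replicate 1. The part of cell division, or of any of these cell types, in the difference of S1pr1 was not tested.

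In the rest of the pathway, 4 of 68 genes above the mean limit differed by 1.5-fold, where 4.77% of all genes did, and 0 by 2-fold. All 4 were higher on replicate 2, as were 389 of the 648 such genes among all named genes. They were Enpp5 (1.74-fold), Arrb1 (1.73-fold), Abca1 (1.62-fold) and Enpp3, which had 7.92 on replicate 2 and 7.05 on replicate 1, below the stricter limit on both arrays. Of the other LPA and S1P receptors, Lpar6 was 1.20-fold lower on replicate 2, and the 4 below the stricter limit are given no direction. The G protein and cytoskeletal effector genes differed least among the pathway lists, with a median absolute difference of 0.040.

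**Figure D4:**
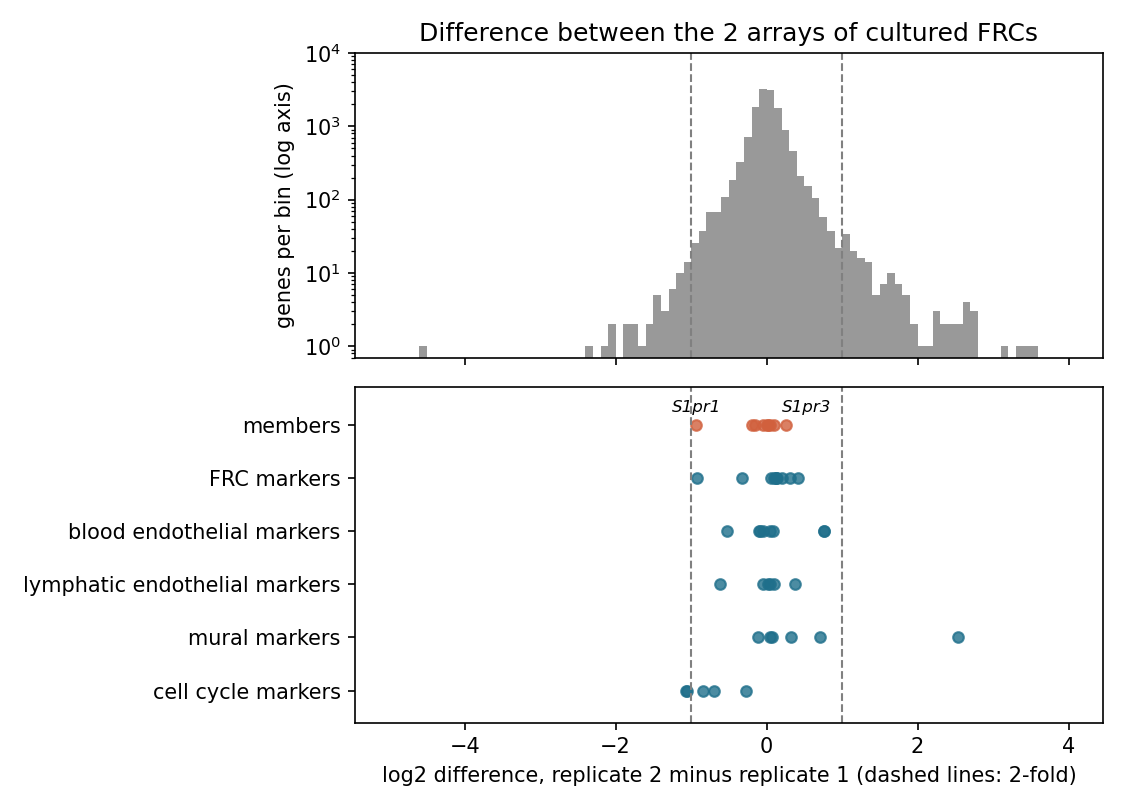
Top, number of genes (log axis) per bin of 0.1 in the log2 difference between the arrays, for 13577 genes above the mean limit. Bottom, the difference of each of the 9 members and of each measured gene in 5 marker lists, with dashed lines at 2-fold. S1pr1 lies at -0.93 among members otherwise within 0.26 of 0, and all 5 cell cycle markers lie left of 0.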

How the data were processed

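RNA of cultured FRCs was measured on 2 microarrays. The authors deposited 1 intensity per probe set in linear units. The submitters' processing notes name RMA, the robust multi-array average, and give no version of it. RMA removes background, equalises the distribution of arrays by quantiles and summarises probes. It shrinks differences at low signal. Intensities had medians of 286.0 and 285.7 on replicates 1 and 2, and having 2 arrays sets the precision.

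The log2 of the deposited intensities was computed here. Of 24679 probe sets, 21354 had a single gene in the platform annotation, 1275 had several and 2050 had no row there. The single-gene ones were used and averaged per gene. The trend between arrays was removed, as an alternative, by lowess with span 0.3 (statsmodels 0.14.6). Members, gene lists, limits and alternatives were chosen with earlier results of these data known. The promoter description and the comparison with genes of like level were added after the values were seen. By the naming rule, the genes of a pathway list on the smaller side of the first limit are named, and all other genes named from these lists were picked after their values were seen. The counting of 2-fold differences was tried on simulated arrays with planted differences, as a check of the code alone. The noise there was taken from olfactory receptor probe sets, so this check cannot judge the counts in the real arrays.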

Additional observations from a re-analysis of the deposited data

How the results depend on the processing

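The count of members above the olfactory receptor limit was 9 under 8 of the 9 alternatives (90th and 99th percentile, either array, each array alone, highest or lowest probe set, quantile normalisation) and 8 with the tissue-restricted limit. Most of these alternatives could not change the count. All 9 passed on both arrays, and each has 1 probe set. That fixed the count for the 90th percentile, either array, each array alone, and the highest or lowest probe set. The other pathway genes above the limit numbered between 56 and 70 under the 9 alternatives, against 66, and all named genes between 9500 and 14779, against 13300. With 1.5-fold in place of 2-fold, the genes that differed between the arrays numbered 1 in place of 0 among members and 648 in place of 192 among all named genes. The other 6 alternatives gave 0 members and between 147 and 206 genes. For the members, only quantile normalisation and removal of the lowess trend could have changed the 0. RMA, named in the processing notes, already equalises arrays by quantiles, so repeating that step had little room to move values. Each member has 1 probe set, so the choice of probe set changed nothing. All 9 had been compared without reaching 2-fold, so another filter on level could not add one. Quantile normalisation moved the members' log2 levels by at most 0.0048 and their differences by at most 0.031. Leaving out either array moved the level of S1pr1 by 0.47. No paired analysis was possible because the series has 1 group. The percentile of the tissue-restricted limit was not varied, so how far the place of Spns2 below it depends on that choice was not tested. Signal over background limits what can be said of Spns2, and 2 arrays of 1 group limit every difference.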
